A study of Drosophila melanogaster with 48 samples.

Results

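Tau, its kinases and futsch were followed through 48 libraries of single Drosophila brains by taking from the table of counts the rows named tau, futsch, Cdk5, Cdk5alpha, sgg and par-1, which are 6 of its 16995 genes. Tau and futsch encode substrates that sit on microtubules, and the other members encode kinases or a kinase activator.

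Tau binds along microtubules, the tracks of axonal transport, and its hold on them loosens when kinases add phosphate groups to it. Phosphorylated tau that detaches and aggregates is known from tauopathies and from brains after injury. Futsch is the fly relative of mammalian MAP1B, a long microtubule-associated protein of axons and of the neuromuscular junction. Cdk5 is a kinase of postmitotic neurons that works only when bound to an activator, in the fly Cdk5alpha, the relative of mammalian p35. Shaggy (sgg) is the fly GSK-3, and it phosphorylates both tau and Futsch. Par-1 is the fly relative of the mammalian MARK kinases, which phosphorylate tau in its microtubule-binding repeats.

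The flies carried 1 of 2 strain labels, Tau-KO, for tau knockout, and w1118, the white-eyed laboratory strain that the methods of the study describe. Within each strain, females and males were dissected 1, 2 or 4 hr after a strike that models traumatic brain injury (TBI), given with the spring arm of the HIT device, or without a strike as controls, with 3 libraries in each of the 16 groups. All brains, those of the controls included, were exposed to near-infrared (NIR) light ex vivo for 2 hr, and the flies were mated and 10 to 14 days old. How the Tau-KO strain was made, which part of tau it lacks and on which background it stands are not given in the sources used here. Each library was made from 15 ng of RNA with a 3′ mRNA kit, so that a read marks the end of a transcript and its number hardly depends on gene length. No sequence of these genes is shown, and coordinates are left out because the counts were made on dm3 while the annotation at hand is BDGP6.

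The libraries held 39517 to 1668925 counts in genes (median 582951.5), and 4079 to 8915 genes were detected. Those under 100000 counts were Tau-KO male control replicate 1 (39517) and w1118 male 1 hr replicate 3 (59781). Brain markers were there, with counts for 14 of 14 neuronal and 8 of 8 glial marker genes in either strain. Markers of the eye, muscle and gut were there too, with counts for 12 of 12, 10 of 10 and 9 of 9 genes. In CPM (counts scaled to a common library total), the summed level of the neuronal markers had medians of 5613 in Tau-KO and 5533 in w1118. It was higher for fat body markers (6929 and 7049) and photoreceptor markers (8529 and 9002). It was lower for muscle (3632 and 3697) and gut (980 and 932). The sex labels were not separated by single genes. The dosage compensation RNA roX1, which is known to be made in males, lay between 736 and 1327 CPM in the 12 libraries labelled Tau-KO female and between 749 and 1590 CPM in the 12 labelled Tau-KO male. In w1118 its range was 53.3 to 1025 CPM in females and 751 to 1482 CPM in males, with medians of 919 and 934 CPM. Other genes leaned the way of the labels while overlapping between them. The partner RNA roX2 had medians of 129 CPM in Tau-KO females and 156 CPM in Tau-KO males, and of 127 CPM in w1118 females and 161 CPM in w1118 males. Of the yolk protein genes, which females are known to express, Yp2 was higher in females than males by 0.47 on the log2 scale in Tau-KO, and Yp1, Yp2 and Yp3 by 0.83 to 0.93 in w1118, at unadjusted p under 0.05 and adjusted p of 1.00 in edgeR. In w1118 the female and male medians lay close, at 2019 and 1769 CPM for Yp1, 565 and 481 CPM for Yp2, and 339 and 318 CPM for Yp3. The highest w1118 female values were 13506, 4987 and 1281 CPM. W1118 females at 2 hr had these genes above their controls by 1.68 to 2.37, at unadjusted p under 0.05 in edgeR. Sex and strain are therefore used below as labels.

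A second feature of the libraries touched every result. In 16 of them, 8 of each strain, the counts differed from those of the most similar library by 4.26 to 21.6 times what counting error allows (chi-square over genes, divided by its degrees of freedom), against 1.36 to 2.30 in the other 32. The nearest library belonged to the other strain for 19 of these 32 and to the same group for 0. Of the 16 libraries that stood apart, 10 carried the replicate number 2. They had more counts in genes (median 872700, against 488380 in the 32) and fewer counts outside genes (median 28.2%, against 37.6% of a column). Counts outside genes are here the sum of the 5 non-gene rows, all reads not assigned to a gene, wherever they lay. For a given difference this chi-square rises with the counts of the libraries, so that a shallow library is less likely to stand apart. The 2 libraries under 100000 counts had the lowest value, 1.36. The main differences are also given without the libraries that stood apart.

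The gene named in the Tau-KO label comes first. Reads of tau were present in all 48 libraries, with 7 to 196 counts in libraries labelled Tau-KO and 11 to 166 in w1118. A 3′ tag outside the deleted part checks nothing, and the table does not say where in the gene the reads fell, so these reads are no check of the strain label. In the annotation tau lies on the minus strand of chromosome arm 3R with 14 transcripts and 3 distinct 3′ ends, and it overlaps RpS10a on the plus strand and the microRNA gene mir-1001 on its own strand. At the 3′ end of tau, 14 bases separate it from Mtl on the plus strand, and whether the counting used strand is not given.

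In females, tau had 121, 256 and 141 CPM in Tau-KO controls, against 167, 165 and 149 CPM in w1118 controls. At 1 hr it had 181, 110.0 and 157 CPM in Tau-KO and 140.4, 117 and 150.3 CPM in w1118 females. At 2 hr the values were 129, 144 and 146 CPM in Tau-KO females and 169, 62.0 and 86.8 CPM in w1118 females. The low w1118 values at 2 hr came from replicates 2 and 3, which both stood apart. At 4 hr tau had 130.3, 154 and 125 CPM in Tau-KO females, against 196, 130.3 and 157 CPM in w1118 females. The strains overlapped at every time in females.

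In males, tau had 135, 113 and 183 CPM in Tau-KO controls, against 177, 116 and 151 CPM in w1118 controls. At 1 hr it had 161, 128 and 182 CPM in Tau-KO and 163, 100.05 and 153 CPM in w1118 males. At 2 hr the values were 139.7, 123 and 184 CPM in Tau-KO males and 77.9, 148 and 175 CPM in w1118 males. These ranges overlapped as well. At 4 hr tau had 91.6, 215 and 183 CPM in Tau-KO males, against 192, 165 and 200.4 CPM in w1118 males. The lowest of them belongs to a library in which tau had 14 counts.

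Across sexes and times the level of tau did not differ detectably between strains. Its median was 143 CPM in the 24 Tau-KO libraries and 152 CPM in the 24 w1118 libraries, and the average strain difference was 0.07 on the log2 scale (SE 0.12, 95% interval −0.16 to 0.31, adjusted p = 0.885 in edgeR). Stated as a fold, the interval runs from 0.895 to 1.24. In the 8 single comparisons the difference lay between −0.23 and 0.43, positive in 5 of 8, with standard errors of 0.32 to 0.34. Without the 16 libraries that stood apart the average was −0.14 (unadjusted p = 0.178). Of the tested neighbours of tau, 5 on each side, 0 had an unadjusted p under 0.05. The smallest belonged to dsd, at 0.25 (SE 0.13, adjusted p = 0.696 in edgeR), and Tusp, at 0.71 (SE 0.37, adjusted p = 0.696 in edgeR).

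**Figure D1:**
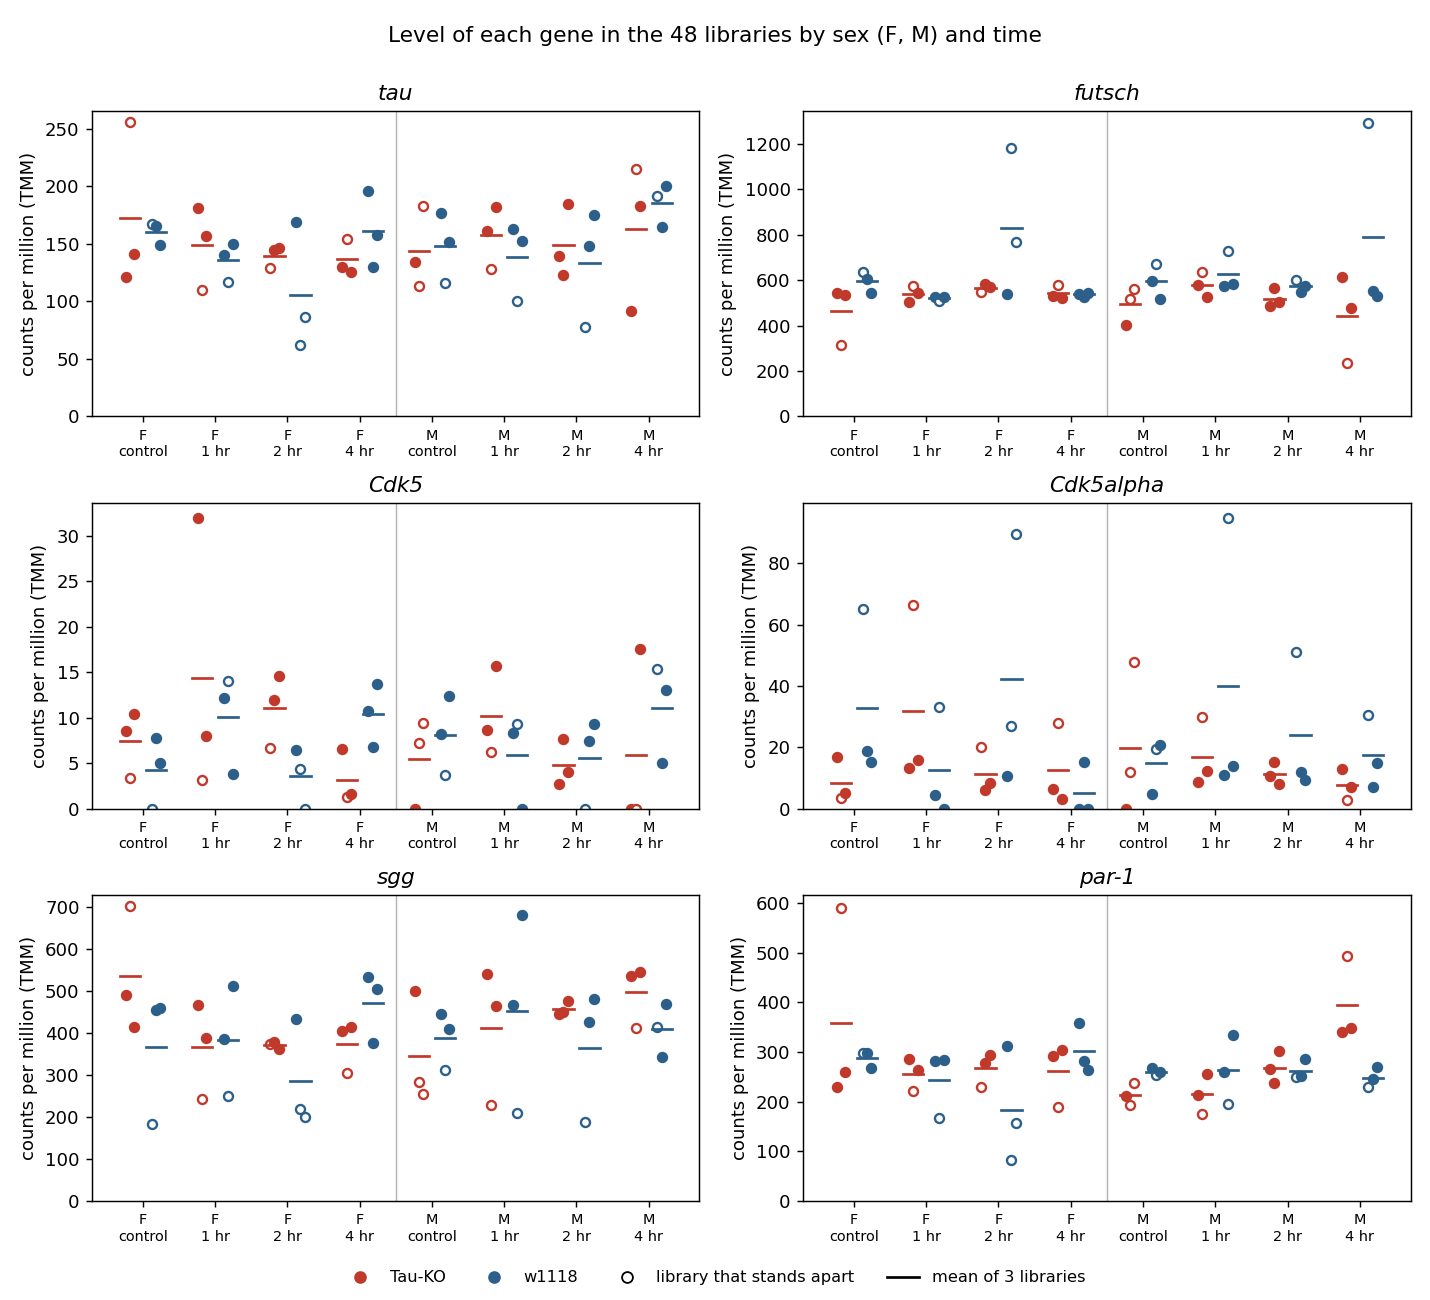
Level of each of the 6 genes in the 48 libraries, in CPM after TMM scaling, by sex (F, M) and time, with Tau-KO in red left of w1118 in blue. Each point is a library, open points are the 16 libraries that stood apart and bars are means of 3 libraries. The strains overlapped for tau at every sex and time, and the highest futsch values, 1183 and 1292 CPM, are open points of w1118.

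Futsch was the member with the smallest unadjusted p in a comparison of strains. With a gene called where its log2 fold change exceeded 1 in size and its adjusted p in edgeR was below 0.05, nothing passed in any of the 32 comparisons made here, so that 0% of genes and 0 of the 5 members tested were called. At an unadjusted p under 0.05 there were 29 to 1167 genes in these comparisons, and DESeq2 called 0 to 145 genes and 0 members. Leaving out a library gave 0 to 527 genes and 0 members called. Cdk5 was too low for the tests. Among the 160 values of the other members in the 32 comparisons, 9 had an unadjusted p under 0.05 (5.63%), the smallest adjusted p being 0.119. These 9 are described below as values, each beside the share of all genes that reached the same p.

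In males at 4 hr futsch had 615, 234 and 478 CPM in Tau-KO libraries, against 1292, 552 and 529 CPM in w1118 libraries. The groups overlapped, the low value and the high value both being libraries that stood apart. The difference was −0.85 (SE 0.28, unadjusted p = 0.00414, adjusted p = 0.180 in edgeR), in a comparison where 15.7% of all genes had an unadjusted p under 0.05 and the median gene stood at −0.11. Without the libraries that stood apart it was −0.01. Leaving out the w1118 replicate 1 alone gave −0.31 (unadjusted p = 0.255 in edgeR), and leaving out the Tau-KO replicate 2 alone gave −0.53 (unadjusted p = 0.0676). The unadjusted p was under 0.05 in 9 of 13 alternatives, the settings listed at the end.

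In females at 2 hr futsch had 547, 584 and 569.8 CPM in Tau-KO libraries, against 537, 1183 and 769 CPM in w1118 libraries. Here the Tau-KO values lie close together and 2 of the 3 w1118 values are high. The difference was −0.55 (SE 0.27, unadjusted p = 0.0499 in edgeR, 7.27% of genes at this level), and it was −0.20 (unadjusted p = 0.473) without the w1118 replicate 2. Leaving out all libraries that stood apart, which leaves 1 w1118 library, turned the sign, to 0.11. Photoreceptor genes differed in the same comparison: 8 of 12 markers were lower in Tau-KO at an unadjusted p under 0.05 in edgeR, with a list median of −1.42 against 0.03 over all genes. Against their own controls, w1118 females at 2 hr had ninaE, Arr1, trp, trpl, chp, Rh3 and Rh4 higher by 1.10 to 3.06 at that level. In Tau-KO females at 2 hr norpA reached it, at −0.67. The part of photoreceptor genes in the futsch value was not tested.

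In female controls futsch had 542, 314 and 534 CPM in Tau-KO libraries, against 636, 606 and 545 CPM in w1118 libraries. All Tau-KO values were below all w1118 values. The groups did not overlap, in either direction, for 8.78% of all genes in this comparison, and the difference of −0.36 (SE 0.27) had an unadjusted p of 0.201 in edgeR. The lowest value came from Tau-KO replicate 2, which stood apart, and without it the difference was −0.15 (unadjusted p = 0.622 in edgeR). Gut markers were lower in Tau-KO in the same comparison, 7 of 8 of them at an unadjusted p under 0.05 in edgeR. Their list median was −3.53 against −0.03 over all genes. Over all libraries their summed level was 596 to 1488 CPM in Tau-KO (median 980) and 61.3 to 9589 CPM in w1118 (median 932), with no marker at 0. The highest value came from a library that stood apart, and the 32 that did not stand apart lay between 596 and 1220 CPM. The part of gut markers in the futsch value was not tested. At the other 5 combinations of sex and time the strain difference of futsch lay between −0.25 and 0.06.

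Averaged over sexes and times, futsch was at −0.28 (SE 0.10, 95% interval −0.47 to −0.08, unadjusted p = 0.00716, adjusted p = 0.647 in edgeR), where 7.30% of genes had an unadjusted p under 0.05. The average of males was −0.34 (unadjusted p = 0.0177, adjusted p = 0.872 in edgeR, 5.69% of genes), that of females −0.21 (unadjusted p = 0.135 in edgeR), and the difference between these averages 0.13 (SE 0.19, unadjusted p = 0.497 in edgeR). Without the libraries that stood apart the average of males was −0.16 (unadjusted p = 0.108 in edgeR). Over all 8 groups the value shrank to −0.08 (unadjusted p = 0.199 in edgeR) without the libraries that stood apart, and leaving out replicate number 2 alone gave an unadjusted p of 0.0594 in edgeR. For this average the unadjusted p was under 0.05 in 7 of 9 alternatives. Photoreceptor markers had lower estimates in Tau-KO in the average as well. Of these 12 genes 5 were lower at an unadjusted p under 0.05 in edgeR, and the list median was −0.43 against −0.03 over all genes. Their summed level ranged from 3621 to 9531 CPM in Tau-KO (median 8529) and from 2933 to 37743 CPM in w1118 (median 9002), with no marker at 0. The highest value came from a library that stood apart, and the 32 that did not stand apart lay between 7715 and 9722 CPM. The part of photoreceptor markers in the futsch average was not tested. The futsch gene lies on the X chromosome and its 3′ end overlaps the receptor gene Gr2a on the same strand, so that reads there could belong to either.

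**Figure D2:**
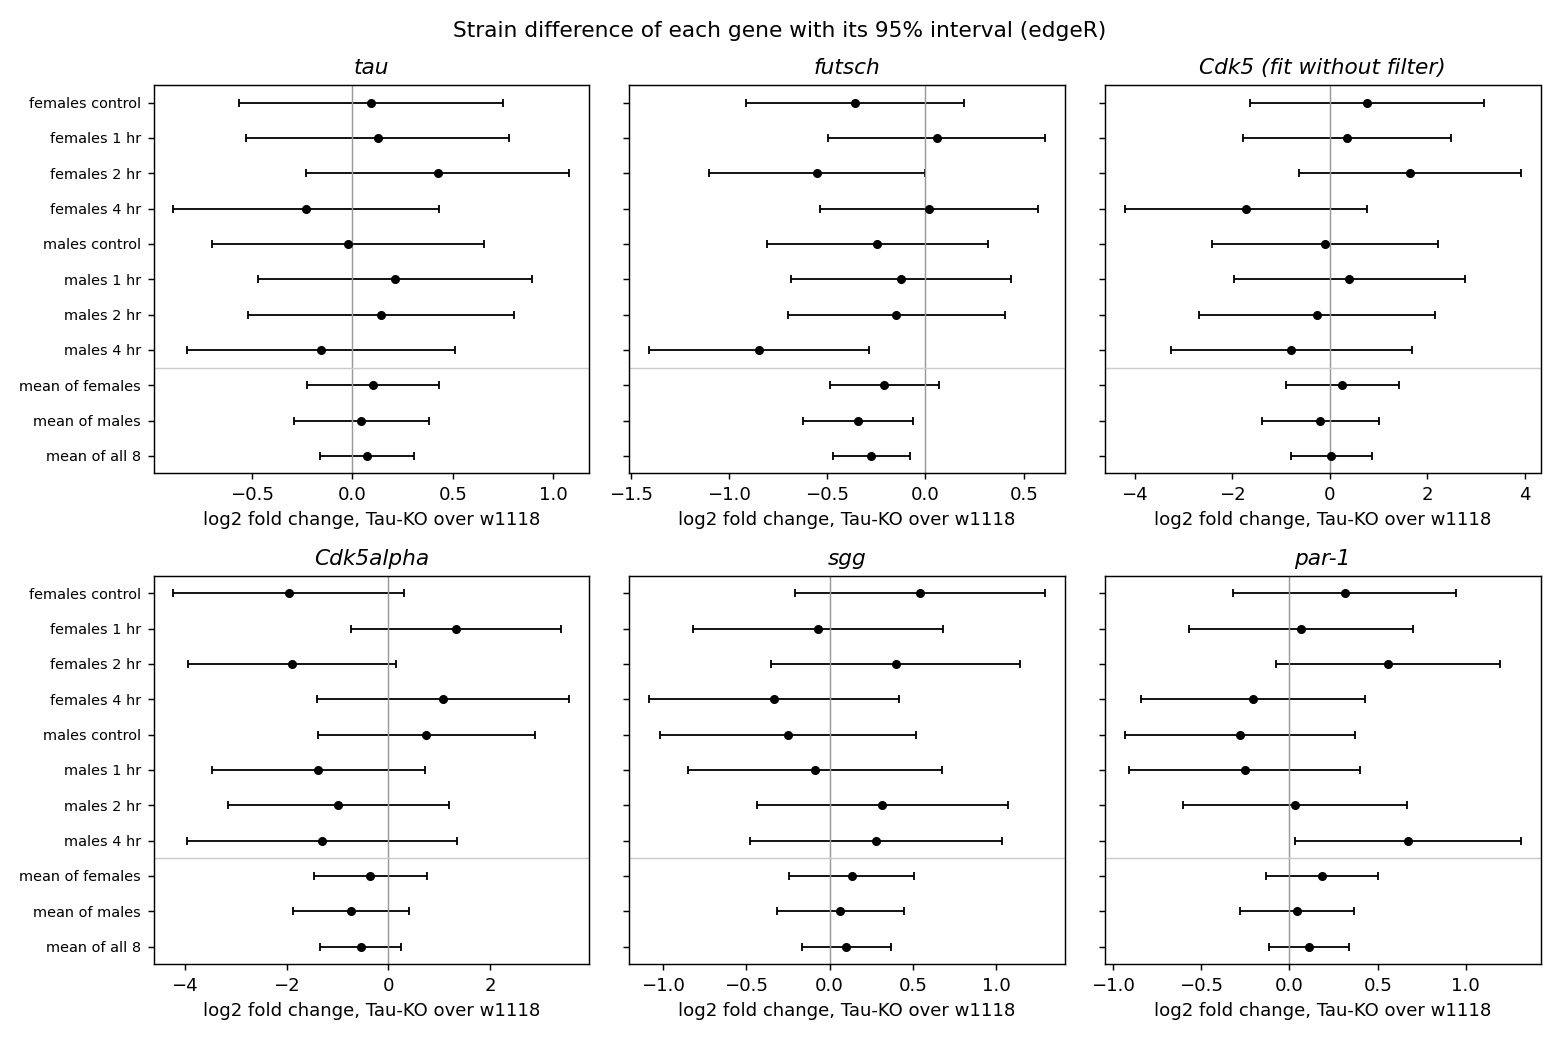
Log2 fold change of Tau-KO over w1118 with its 95% interval from edgeR, for each gene at each sex and time and for the averages, with a horizontal scale of its own in each panel. Intervals that leave out 0 are those of futsch in females at 2 hr, in males at 4 hr and in 2 of the averages, and that of par-1 in males at 4 hr, and none had an adjusted p under 0.05.

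Among the kinases, par-1 held the only other value of this kind between the strains. In males at 4 hr it had 340.4, 494 and 348 CPM in Tau-KO libraries, against 230.3, 246 and 269 CPM in w1118 libraries. All Tau-KO values were above all w1118 values, and the groups of 25.7% of all genes did not overlap, in either direction, in this comparison. The difference was 0.67 (SE 0.32, unadjusted p = 0.0405, adjusted p = 0.300 in edgeR), with 15.7% of genes at that level. Without the libraries that stood apart it was 0.42 (unadjusted p = 0.0360 in edgeR), and without the Tau-KO replicate 2 alone 0.46 (unadjusted p = 0.201). The unadjusted p was under 0.05 in 8 of 13 alternatives. The Tau-KO libraries of this comparison held fewer counts than the w1118 libraries, as given below with the injury comparison. Of the 14 neuronal markers, 1 was higher and 3 were lower in Tau-KO at an unadjusted p under 0.05 in this comparison, and their part in the values of futsch and par-1 was not tested. In male controls the order was the other way round, with 211, 192 and 238 CPM in Tau-KO libraries and 267, 253 and 260.2 CPM in w1118 libraries. The groups of 7.42% of genes did not overlap there, and the difference of −0.28 (SE 0.32) had an unadjusted p of 0.393 in edgeR. Over all groups par-1 differed by 0.11 between strains (SE 0.11, unadjusted p = 0.319 in edgeR). The 3′ end of par-1, on chromosome arm 2R, overlaps that of the tubulin-binding cofactor gene Tbcb on the opposite strand, and whether the counting used strand is not given in the sources used here.

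Shaggy did not differ detectably between the strains. Its median was 415 CPM in Tau-KO libraries (228 to 703) and 421 CPM in w1118 libraries (184 to 681), and the average difference was 0.10 (SE 0.13, 95% interval −0.17 to 0.37, unadjusted p = 0.457 in edgeR). The single comparisons ran from −0.33 to 0.54. Without the libraries that stood apart the average was 0.01. The sgg gene lies on the X chromosome, with 19 transcripts and 6 distinct 3′ ends in the annotation, and the counts do not tell its isoforms apart.

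Cdk5 and its activator were the members with the fewest reads. Cdk5 had 0 to 12 counts in Tau-KO libraries, with 0 counts in 3 of 24, and 0 to 11 counts in w1118 libraries, with 0 counts in 4 of 24. It passed the filter on low counts in none of the fits, and in a fit without that filter its average strain difference was 0.04 with an SE of 0.43, so that the 95% interval from −0.80 to 0.87 takes in changes in either direction. The only Cdk5 transcript in the annotation overlaps CG30466, on the opposite strand of 2R, at its 3′ end. Cdk5alpha, which lies on 2L with no gene overlapping it, had 0 to 84 counts in Tau-KO libraries (median 11.3 CPM) and 0 to 112 in w1118 libraries (median 15.0 CPM). Its average difference was −0.54 (SE 0.39, 95% interval −1.34 to 0.25, unadjusted p = 0.167 in edgeR). Without replicate number 2 the average was 0.18 (unadjusted p = 0.540 in edgeR), and without the libraries that stood apart Cdk5alpha did not pass the filter. At single times it ran from −1.96 in female controls to 1.33 in females at 1 hr, with standard errors of 1.01 to 1.31. Leaving out 1 library at a time gave −2.79 to −1.03 for female controls, and 0.17, without Tau-KO replicate 2, to 3.64, without w1118 replicate 2, for females at 1 hr.

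Next, each injured group was compared with the control of its own strain and sex, so that the 3 times share their control libraries. For tau the 12 differences lay between −0.62 and 0.33 with standard errors of 0.31 to 0.34, and none had an unadjusted p under 0.05. The lowest of them was in w1118 females at 2 hr, where 2 of 3 libraries stood apart (unadjusted p = 0.0744 in edgeR). Without the libraries that stood apart it was 0.11 (unadjusted p = 0.688). Futsch lay between −0.23 and 0.49. In 3 of its 12 comparisons the injured and control libraries did not overlap. In Tau-KO females at 2 hr its values were 547, 584 and 569.8 CPM, against 542, 314 and 534 CPM in controls, where 11.4% of genes had groups that did not overlap. In w1118 females the values were 528, 509 and 526 CPM at 1 hr, and 541, 528 and 545 CPM at 4 hr, against 636, 606 and 545 CPM in controls, with non-overlapping groups for 5.71% and 8.12% of genes. None of the 3 had an unadjusted p under 0.05, the differences being 0.29, −0.20 and −0.14. Without the Tau-KO control of 314 CPM, which stood apart, 0.29 became 0.07 (unadjusted p = 0.777 in edgeR), and without the w1118 control of 636 CPM, which also stood apart, −0.14 became −0.09 (unadjusted p = 0.777). Gut markers were lower in injured w1118 females than in these controls, 5 of 6 of them at each time at an unadjusted p under 0.05 in edgeR. The same w1118 controls were the reference of the strain comparison above in which gut markers were lower in Tau-KO. The part of gut markers in the futsch values was not tested.

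The largest value for par-1 was again in Tau-KO males at 4 hr, with 340.4, 494 and 348 CPM, against 211, 192 and 238 CPM in controls. The groups did not overlap, which was so for 14.02% of genes. The difference was 0.86 (SE 0.31, unadjusted p = 0.00964, adjusted p = 0.119 in edgeR), while 23.3% of all genes had an unadjusted p under 0.05 in this comparison. Leaving out each library in turn gave 0.67 to 0.97, with unadjusted p of 0.00913 to 0.0558 in edgeR. The largest of these p came without the Tau-KO replicate 2 of 4 hr, where the value was 0.67. Without all libraries that stood apart, it was also 0.67. That last value rests on 1 control, the library of 39517 counts with 11 par-1 counts, and is given with no test. With only that control left out, 527 genes and 0 members were called in this comparison. At 2 hr par-1 had 266, 238 and 302 CPM in the same males, above all controls as well (groups of 13.5% of genes did not overlap), with a difference of 0.28 (unadjusted p = 0.366 in edgeR). In w1118 males at 4 hr the difference was −0.06 (SE 0.33). The response of Tau-KO males at 4 hr minus that of w1118 males was 0.95 (SE 0.45, unadjusted p = 0.0422, adjusted p = 0.354 in edgeR), where 13.4% of genes reached that level. Without the libraries that stood apart it was 0.72 (unadjusted p = 0.102 in edgeR). Leaving out each replicate number gave 0.64 to 1.198, with unadjusted p of 0.0888 to 0.128, and the unadjusted p was under 0.05 in 1 of 9 alternatives.

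The libraries behind this value were unlike each other. Tau-KO males at 4 hr had 134970, 340255 and 265717 counts in genes, with 46.9, 40.1 and 41.0% of counts outside genes. Their controls had 39517, 891279 and 1198452 counts, with 52.8, 29.8 and 26.6% outside genes. W1118 males at 4 hr had 494825, 1038474 and 532264 counts, with 27.0, 31.4 and 36.5%. The part of depth and of this share in the futsch and par-1 values of these males was not tested. Replicate 1 of Tau-KO males at 4 hr had 14 tau counts, 94 futsch counts and 52 par-1 counts, and replicate 2 stood apart with 234 CPM of futsch, 494 CPM of par-1 and 215 CPM of tau. Neuronal markers were higher in 4 of 14 genes against controls at an unadjusted p under 0.05, and lower in 0, while photoreceptor markers were higher in 1 of 12 and lower in 3. Their part in the par-1 value was not tested.

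Cdk5alpha in females at 1 hr had differences of opposite sign in the strains, on few reads. In Tau-KO it had 5, 84 and 8 counts at 1 hr, against 6, 1 and 4 counts in controls, which gave a difference of 2.01 (SE 0.93, unadjusted p = 0.0368, adjusted p = 0.789 in edgeR), with 5.70% of genes at that level. The 84 counts belong to replicate 2, which stood apart, and without it the value was 0.80 (unadjusted p = 0.433 in edgeR). In w1118 females it had 3, 26 and 0 counts at 1 hr, against 35, 12 and 9 counts in controls, a difference of −1.31 (SE 1.13, unadjusted p = 0.254 in edgeR). The 35 counts are those of a control that stood apart, without which it was −0.37 (unadjusted p = 0.771 in edgeR), while it was −3.64 without the library of 26 counts, which stood apart too, and −2.65 (unadjusted p = 0.0171) without all libraries that stood apart. The test of the responses against each other gave 3.29 (SE 1.52, unadjusted p = 0.0336, adjusted p = 0.999 in edgeR), with 2.68% of genes at that level. Without replicate 2 of both strains this became 4.41 (unadjusted p = 0.0138 in edgeR), and without replicate 3 it was 3.06 (unadjusted p = 0.107 in edgeR).

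Shaggy had 375, 378 and 363 CPM in Tau-KO females at 2 hr, against 491, 703 and 414 CPM in controls. The groups did not overlap, in the comparison where this was so for 11.4% of genes. The difference of −0.52 (SE 0.30) had an unadjusted p of 0.0904 in edgeR, and without the control of 703 CPM, which stood apart, it was −0.28 (unadjusted p = 0.384). Its other injury differences lay between −0.55 and 0.59. Between females and males of a strain, averaged over times, the differences of the 5 tested members ran from −0.06 to 0.09 in Tau-KO and from −0.31 to −0.05 in w1118, with standard errors of 0.13 to 0.48 and 0.15 to 0.59.

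**Figure D3:**
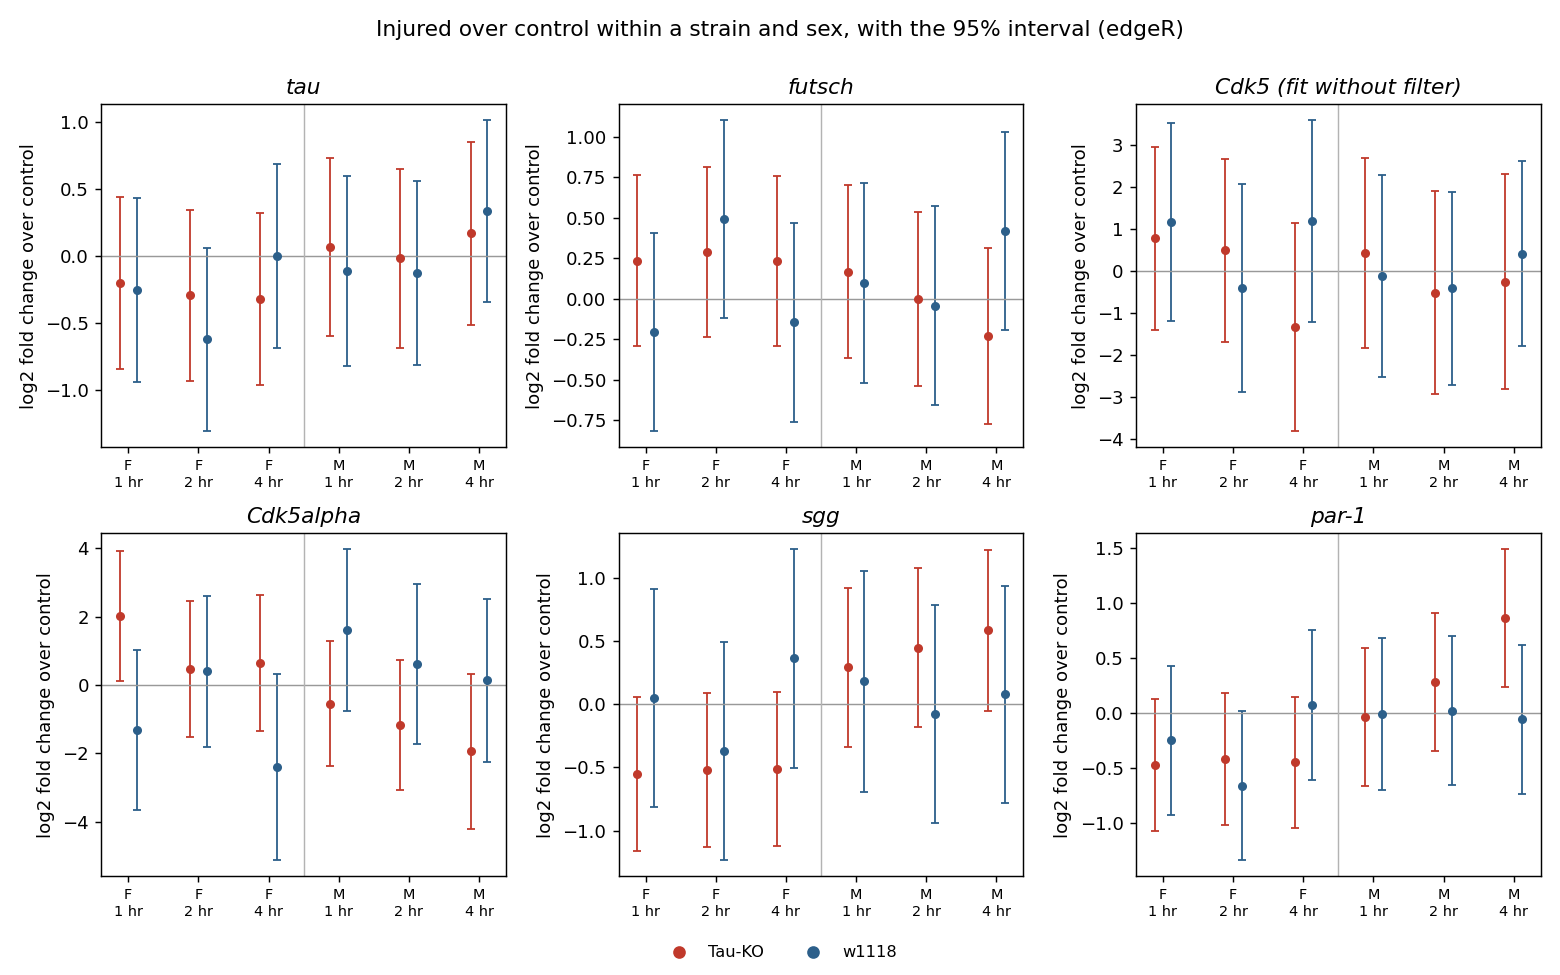
Log2 fold change of injured over control brains at 1, 2 and 4 hr with its 95% interval from edgeR, for females (F) and males (M), with Tau-KO in red left of w1118 in blue. The intervals of par-1 in Tau-KO males at 4 hr and of Cdk5alpha in Tau-KO females at 1 hr leave out 0, and both adjusted p-values were over 0.05.

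The spread of the members over libraries was set against counting error. Among the 32 libraries that did not stand apart, futsch varied no more than counting error allows: its chi-square per degree of freedom was 0.898 over 404 to 615 CPM, although these libraries span both strains, both sexes and all times. Cdk5alpha (1.59), Cdk5 (1.55), tau (1.51) and par-1 (1.42) lay somewhat above counting error in the same libraries, and sgg (3.49) further above. By strain, Cdk5alpha was at 0.957 in Tau-KO and 2.27 in w1118, and Cdk5 at 2.29 and 0.679, both on few counts. Among the 16 that stood apart the same measure was 70.5 for futsch, 34.2 for par-1, 25.8 for sgg, 15.7 for Cdk5alpha, 12.9 for tau and 2.82 for Cdk5. The choice of the 16 used all genes, these members included, so the contrast is a description.

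The members lay on different sides in the 16 libraries. Cdk5alpha was above the whole range of the other 32 in 11 of 16 and below it in 0, with a pooled level of 43.4 CPM, against 9.85 CPM in the others. Sgg lay low, with 12 of 16 below the range of the others and 1 above, and 270.0 CPM pooled, against 438 CPM. For par-1, 7 of 16 lay below and 2 above, with 214 CPM, against 274 CPM. Futsch lay above in 7 and below in 2, with 679.5 CPM, against 545 CPM, and tau below in 3, above in 2 and inside in 11, with 125 CPM, against 155 CPM. Cdk5 lay inside the range of the others in 16 of 16. The direction was not the same in all 16. In Tau-KO female control replicate 2 and Tau-KO male 4 hr replicate 2 futsch was low (314 and 234 CPM) and tau (256 and 215 CPM) and par-1 (590.3 and 494 CPM) were high. W1118 female 2 hr replicate 2 showed the mirror image, with 1183 CPM of futsch, 62.0 CPM of tau and 81.8 CPM of par-1.

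Markers of cell types also differed between the 16 libraries and the others. The summed level of the 14 neuronal markers had a median of 4811 CPM in the 16 (4033 to 6399), against 5764 CPM in the 32 (4829 to 6886). For the 12 photoreceptor markers it was 5970.4 CPM (2933 to 37743), against 8992 CPM (7715 to 9722), and for the 10 muscle markers 4008 CPM (315 to 4700.0), against 3598 CPM (2711 to 3935). Every marker of these 3 lists had counts in both sets. These sums do not tell apart the number of cells of a type, the RNA in each cell and the tissue taken at dissection. The part of any of them in the levels of tau, futsch and the kinases was not tested.

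**Figure D4:**
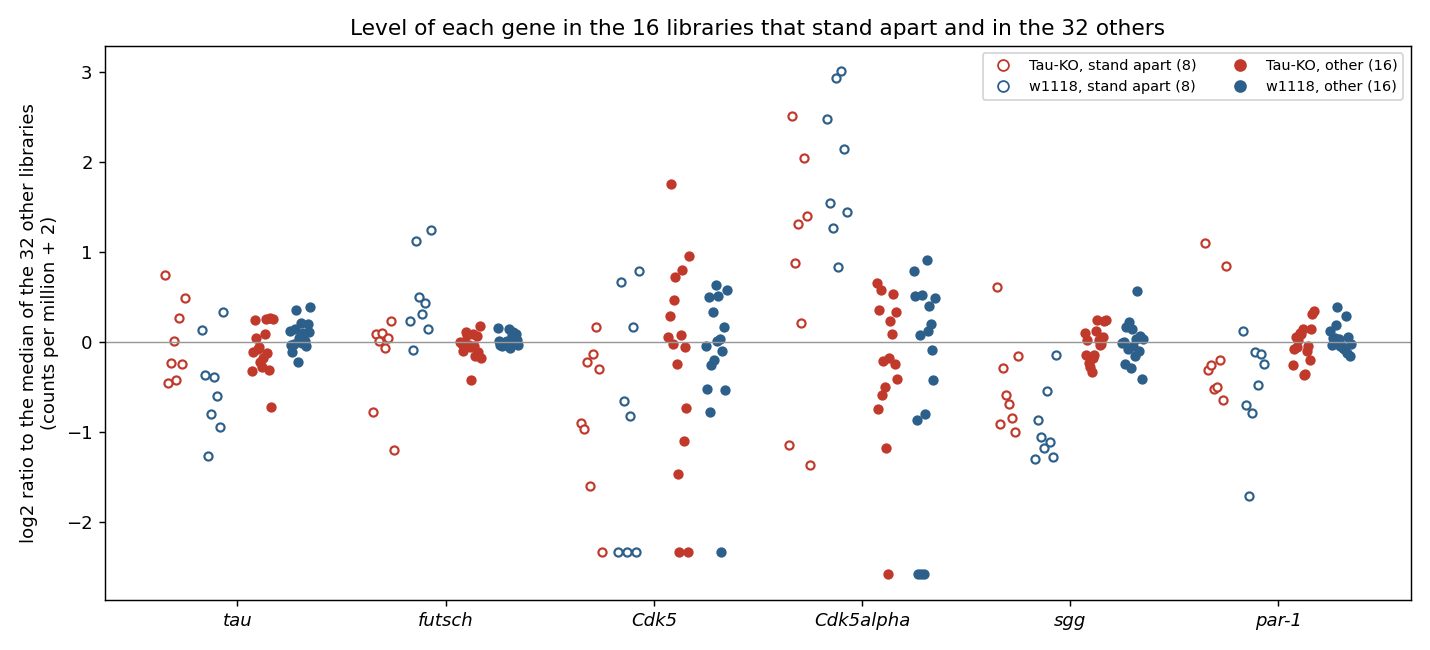
Log2 ratio of the level of each gene in a library, in CPM plus 2, to its median in the 32 libraries that did not stand apart. Open points are the 16 libraries that stood apart and filled points the 32 others, with Tau-KO in red left of w1118 in blue. The open points of Cdk5alpha lie mostly above 0 and those of sgg mostly below, while the filled points of futsch lie close to 0.

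Pairs of members were also correlated across libraries. Over the 24 libraries of a strain, on log2(CPM + 2), 7 of 15 pairs passed an adjusted p of 0.05 in a permutation test in Tau-KO and 6 of 15 in w1118. The share of pairs of other genes that would pass was not computed, so these counts are descriptions and not a trait of the members. Within the 16 libraries of each strain that did not stand apart, 0 of 15 pairs passed in either. Cdk5alpha and sgg ran against each other in both strains: r was −0.65 in Tau-KO (rho −0.48, adjusted p = 0.00685 and 0.0720 by permutation) and −0.74 in w1118 (rho −0.75, adjusted p = 6.0e-04 and 3.0e-04 by permutation). Leaving out the 2 libraries farthest from the median gave −0.51 and −0.69, and within the libraries that did not stand apart r was 0.02 and −0.25. Tau and par-1 ran together, with r of 0.56 in Tau-KO and 0.77 in w1118 (rho 0.41 and 0.59, adjusted p of r = 0.0109 and 6.5e-04 by permutation). Their r fell to 0.16 in Tau-KO and 0.49 in w1118 without the 2 farthest libraries, and was −0.01 and 0.27 among those that did not stand apart. Tau and futsch had r of −0.62 in Tau-KO and −0.39 in w1118 (rho −0.44 and −0.13, adjusted p of r = 0.00685 and 0.0695 by permutation). Without the 2 farthest libraries it was −0.29 in Tau-KO and −0.54 in w1118 (adjusted p = 0.0402 by permutation in w1118), and among the libraries that did not stand apart −0.34 and 0.25. Some pairs kept a similar r on fewer libraries: sgg and par-1 in w1118 had 0.61 in all libraries and 0.61 among those that did not stand apart (adjusted p = 0.0042 and 0.213 by permutation), and futsch and Cdk5alpha in Tau-KO had 0.58 and 0.63 (adjusted p = 0.0103 and 0.144 by permutation).

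Members were set against the counts in genes, the share of counts outside genes and the chi-square to the nearest library. Of 18 such relations, 7 passed an adjusted p of 0.05 by permutation in Tau-KO and 13 in w1118, and 1 and 4 among libraries that did not stand apart. With the share outside genes tau had r of 0.20 in Tau-KO and 0.63 in w1118, and futsch −0.46 and −0.57. Among libraries that did not stand apart these were −0.21 and 0.20, and −0.52 and 0.30. Shaggy held the largest r in size in both strains. Each p below is adjusted, and the smallest raw value that the permutations can give is 1.0e-05, which sgg reached in both strains. Its r with the share of counts outside genes was 0.85 in Tau-KO and 0.84 in w1118 (rho 0.88 and 0.84, adjusted p of r = 1.8e-04 in either by permutation, over 18 relations of members to library measures). Without the 2 farthest libraries r was 0.89 and 0.81, and within the 16 libraries that did not stand apart it was 0.68 in Tau-KO (adjusted p = 0.0454 by permutation) and 0.84 in w1118 (adjusted p = 9.0e-04 by permutation). With the log2 of counts in genes its r was −0.71 in Tau-KO and −0.65 in w1118 (adjusted p = 6.0e-04 and 5.4e-04 by permutation), and −0.58 and −0.86 among libraries that did not stand apart. For par-1 the r with the share outside genes was 0.48 in Tau-KO and 0.71 in w1118, and −0.12 and 0.71 among libraries that did not stand apart. Cdk5alpha ran the other way, with r of −0.71 and −0.66, but at −0.36 and −0.22 among libraries that did not stand apart. The 5 non-gene rows behind this share were not told apart, so it is not a measure of reads lying between genes. Where these reads came from was not analysed here, and their part in the level of sgg was not tested.

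**Figure D5:**
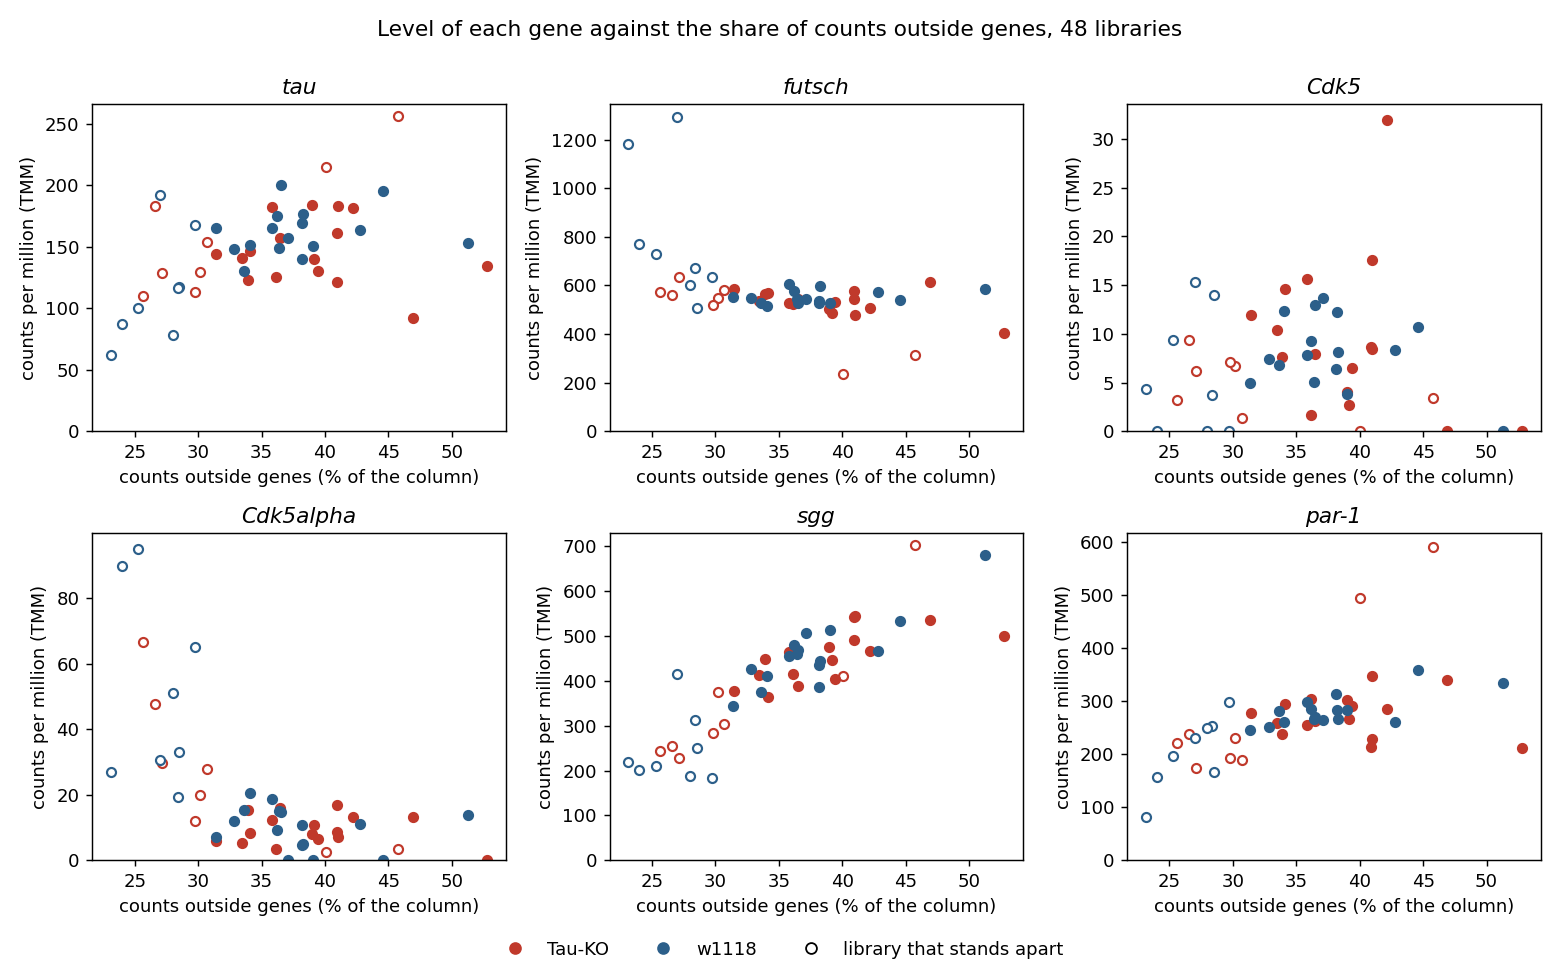
Level of each gene in CPM after TMM scaling against the share of a column's counts outside genes, for 48 libraries, with Tau-KO in red and w1118 in blue and the 16 libraries that stood apart as open points. Counts outside genes are the sum of the 5 non-gene rows. The level of sgg goes up with that share over its whole width, 23.1 to 52.8%, and high Cdk5alpha values sit at low shares.

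By the same measure the genes most like tau over the 24 w1118 libraries were scyl (r = 0.87), Gprk2 (0.87), snoRNA:229 (0.86), CG15894 (0.86) and sky (0.86). In Tau-KO these values were 0.15, 0.57, 0.51, 0.31 and 0.36, and in the 16 w1118 libraries that did not stand apart they lay between −0.10 and 0.36. Those most like futsch were CG13631, CG3224, Frq1, Scp2 and Vha100-1, with r of 0.81 to 0.87 in w1118, and −0.26 to 0.21 among its libraries that did not stand apart. In Tau-KO their r was 0.62, 0.43, −0.08, 0.87 and 0.75. Genes were picked for the highest of many values, so these r are descriptions.

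Lists of related genes were examined in the average over all groups. Of the 22 listed genes for other kinases that act on tau, such as those of the casein kinase families, protein kinase A and MAP kinases, 18 were tested, and on the average of all groups 0 had an unadjusted p under 0.05 in edgeR. Their median difference was 0.05, against −0.03 over all genes, with 12 of 18 above 0. Of the 12 listed genes of protein phosphatases (PP2A, PP1 and calcineurin), which remove phosphate from tau, 11 were tested, with 0 under an unadjusted p of 0.05 and a median of 0.07. Of 22 listed other microtubule-associated proteins, motors and severing enzymes 18 were tested, with 0 and a median of 0.00, and of 7 regulators and partners of futsch 7 were tested, with 0 and a median of 0.08. DESeq2 called 0 genes of the whole table in this comparison.

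In males at 4 hr, where 15.7% of all genes had an unadjusted p under 0.05, the lists held 5 such genes. Chosen for that after their values were seen, they were the kinases Tao at 1.01 (SE 0.41) and Lkb1 at −2.44 (SE 1.32), the centrosomal tacc at −0.74 (SE 0.33), the tubulin deacetylase HDAC6 at −1.26 (SE 0.61) and the proteoglycan dally at −1.19 (SE 0.50). Their adjusted p-values in edgeR lay between 0.249 and 0.302.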

How the data were processed

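Poly(A) RNA of 48 single fly brains was measured by 3′ mRNA-Seq. According to the labels and the study's methods, reads were de-multiplexed with CASAVA 1.8.2 and aligned to dm3 with STAR 2.4, reads per gene were counted with HTSeq, and the authors deposited these whole-number counts without normalization. The submitters' processing notes also name edgeR 3.22.3, whose fold changes and p-values fill further deposited sheets that were not used here. The 5 non-gene rows, 23.1 to 52.8% of a column, were kept out of totals and fits.

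Counts were fitted in edgeR 4.0.16 (R 4.3.3) with a mean per group, TMM scaling, filterByExpr and the quasi-likelihood test, over 5821 genes for comparisons between strains, and within each strain over 5015 genes (Tau-KO) and 5477 genes (w1118) for injury and sex. A gene was called at an absolute log2 fold change over 1 and a Benjamini-Hochberg adjusted p under 0.05, all tests being two-sided. DESeq2 1.42.0 was run beside it. Standard errors and 95% intervals are Wald values of the fit. Levels are TMM-scaled CPM. Correlations used 100000 permutations, adjusted over 15 pairs or 18 library relations per strain. The script was tested on simulated counts.

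The rule for named genes took the 6 members, any called list gene, the 5 genes most correlated with tau or futsch among those with a mean of at least 20 counts, and the 5 tested neighbours of tau on each side. Members and lists were chosen with earlier results of these data known. Each library counts as a separate brain. With replicate numbers compared by deviations from group means over 2000 genes, all 3 pairs correlated over 0.1 between strains in females at 1 hr (0.567, 0.754 and 0.520), females at 4 hr (0.468, 0.530 and 0.199) and males at 1 hr (0.445, 0.729 and 0.385), and between w1118 males at 1 hr and controls (0.470, 0.667 and 0.203). In the other comparisons at least 1 pair did not exceed 0.1, the lowest being −0.591 for replicate 1 of w1118 males at 4 hr and controls. Libraries stood apart where chi-square per degree of freedom to the nearest library exceeded 4, on those genes where the pair had 20 counts or more. Gene positions come from BDGP6, in which 13166 of 16995 symbols were found.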

Additional observations from a re-analysis of the deposited data

How the results depend on the processing

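The results were recomputed with size factors of DESeq2, with unfiltered counts, with a replicate block, with DESeq2 itself, on the 6 libraries of a comparison, with each library or replicate number left out, and without libraries under 100000 counts or the 16 that stood apart. Members called remained 0 in all 368 combinations of comparison and alternative. The replicate block gave each replicate number an effect shared by all groups of a fit. With it 0 genes were called in all 32 comparisons, as in the main fits, so it cannot show what pairing does to a call. Of 1802 values of the 5 tested members, 194 had the opposite sign to that reported, and 1 of these concerned a result with an unadjusted p under 0.05, futsch in females at 2 hr, which was 0.11 without the libraries that stood apart, where 1 w1118 library is left. Over all genes the fits called 0 everywhere, against 0 to 349 without a filter, 0 to 145 with DESeq2, 0 to 527 with a library left out or without those under 100000 counts, and 0 to 89 without those that stood apart. The 527 belonged to Tau-KO males at 4 hr against controls, with control replicate 1 (39517 counts) left out. The cause was not tested.

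Pairs of members that correlated numbered 7 in Tau-KO and 6 in w1118, and 7 in either strain on deviations from group means. They numbered 2 and 4 without the 2 farthest libraries, and 0 in either strain without the libraries that stood apart. This last setting was chosen after seeing the data. Where an arm keeps 1 library, its spread is taken from the other groups. Depth limits Cdk5, with at most 12 counts in a library, and Cdk5alpha most.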
